A study of Homo sapiens with 3 samples.

Results

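E-cadherin and the genes that set or oppose epithelial identity were followed across 3 cultures of LoVo, an established human colorectal cancer cell line. The genes are 10 listed by symbol out of 18417 with a value of their own on the array. The epithelial members are CDH1, GRHL2, RAB25, ESRP2 and OVOL1, and the mesenchymal members are ZEB1, ZEB2, SNAI2, VIM and TCF4. They were chosen on the levels of these same arrays, so the values below describe them and test nothing. Every one of the 10 had a probe set (a group of probes summarised as 1 value) that names no other gene, and none was left out.

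The cultures were parental LoVo, the irinotecan-resistant line LoVo-R8 kept free of irinotecan (LoVo 8R-), and LoVo-R8 with 8 μM irinotecan in the medium (LoVo 8R+). Irinotecan is a camptothecin derivative that traps topoisomerase I on DNA, and LoVo-R8 was raised from LoVo by stepping the dose up from 0.1 to 8 μM. Both resistant cultures therefore share the same selection, and whether LoVo-R8 is 1 clone or a mixed population is not stated by the sources at hand. A treatment note common to all arrays speaks of irinotecan before RNA was purified, and it is not given whether parental LoVo received any. Total RNA of each culture went onto 1 Affymetrix Human Gene 1.0 ST array. Where 3 levels follow a gene, they stand in the order parental LoVo, LoVo 8R-, LoVo 8R+, and a pair of differences is LoVo 8R- and then LoVo 8R+, each minus parental LoVo. Values are log2 levels made by the robust multichip average (RMA), so a difference of 1 is a 2-fold difference. There are no replicates, so nothing below carries a measured error, and so small a number of arrays limits the precision. As a yardstick, 95% of genes differed by less than 0.53 and 99% by less than 0.90 between LoVo 8R- and LoVo 8R+, which differ in the drug and are not replicates.

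E-cadherin, the product of CDH1, joins neighbouring epithelial cells through contacts that are anchored to actin by catenins. In epithelial to mesenchymal transition, repressors of the ZEB and SNAI families bind E-box sequences and silence CDH1 and other epithelial genes, while microRNAs of the miR-200 family restrain ZEB1 and ZEB2. The grainyhead factor GRHL2 and the zinc finger factors OVOL1 and OVOL2 act on the epithelial side of this balance, and ESRP1 and ESRP2 maintain epithelial splice forms.

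On both LoVo-R8 arrays, 4 of the 5 epithelial members were at least 2-fold below parental LoVo and 3 of the 5 mesenchymal members at least 2-fold above it. The lower genes were CDH1, GRHL2, RAB25 and OVOL1, and the higher ones ZEB1, VIM and TCF4. ESRP2, ZEB2 and SNAI2 lay within 2-fold on both arrays. Of all genes, 2.78% passed 2-fold downward and 1.64% upward in LoVo 8R-, where the shares for LoVo 8R+ were 2.30% downward and 2.25% upward. Because the members were picked from these arrays, nothing is read from their larger share. The same shares of all genes stand beside the count of every other gene list below. In a bulk culture, fewer cells that express a gene cannot be told apart from less RNA per cell.

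**Figure D1:**
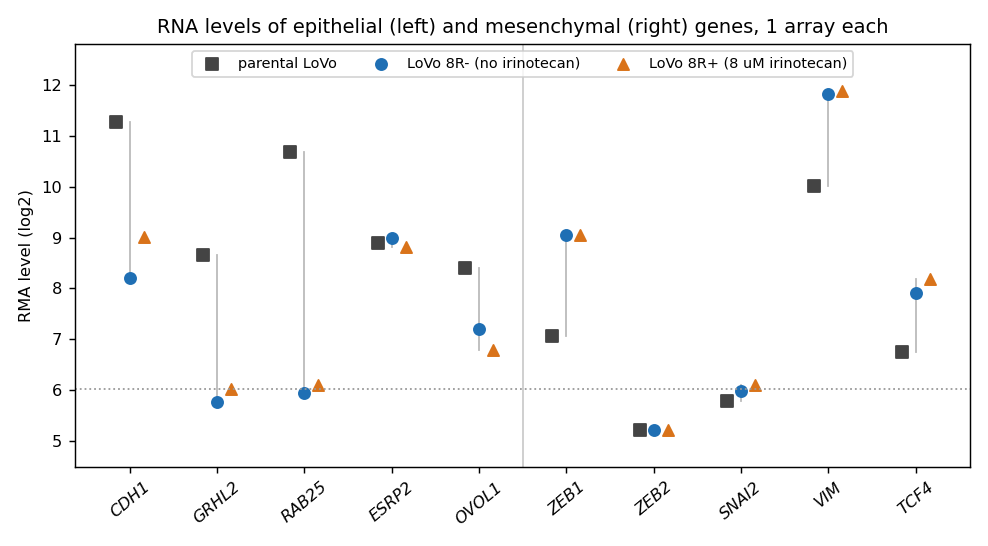
RMA log2 levels of the 10 genes on 1 array per culture, with squares for parental LoVo, circles for LoVo 8R-, triangles for LoVo 8R+ and a dotted line at the first quartile of all genes in parental LoVo (6.04). Grey lines span the levels of each gene. The squares of CDH1, GRHL2, RAB25 and OVOL1 lie above the other symbols, those of ZEB1, VIM and TCF4 below them, and ZEB2 has the same level of 5.23 on all arrays.

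The log2 level of CDH1 was highest in parental LoVo at 11.26, with LoVo 8R- at 8.20 and LoVo 8R+ at 9.0. It was thus 8.34-fold lower in LoVo 8R- and 4.80-fold lower in LoVo 8R+, as log2 differences of -3.06 and -2.26. Its level in LoVo 8R- ranked 63.8% of the way up the genes of that array, so CDH1 stayed well clear of the dim end. Counted from the lowest difference among 18417 genes, CDH1 held rank 37 without irinotecan and rank 66 with it.

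The cadherin next to it behaved alike, although most other genes nearby did not. CDH3, which encodes P-cadherin and is the measured neighbour of CDH1 on chromosome 16, stood at 9.80 in parental LoVo, with LoVo 8R- at 6.69 and LoVo 8R+ at 6.73. Its differences were -3.10 and -3.07. ESRP2 lies on the same stretch, with 7 measured protein-coding genes between it and CDH1. Apart from CDH3, the 6 genes in between had differences from -0.39 to 0.36 in LoVo 8R- and from -0.36 to 0.32 in LoVo 8R+. On the far side of CDH1, TANGO6 had 0.24 and 0.30, HAS3, a hyaluronan synthase gene, 0.08 and 0.00, and CHTF8 -0.65 and -0.41.

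**Figure D2:**
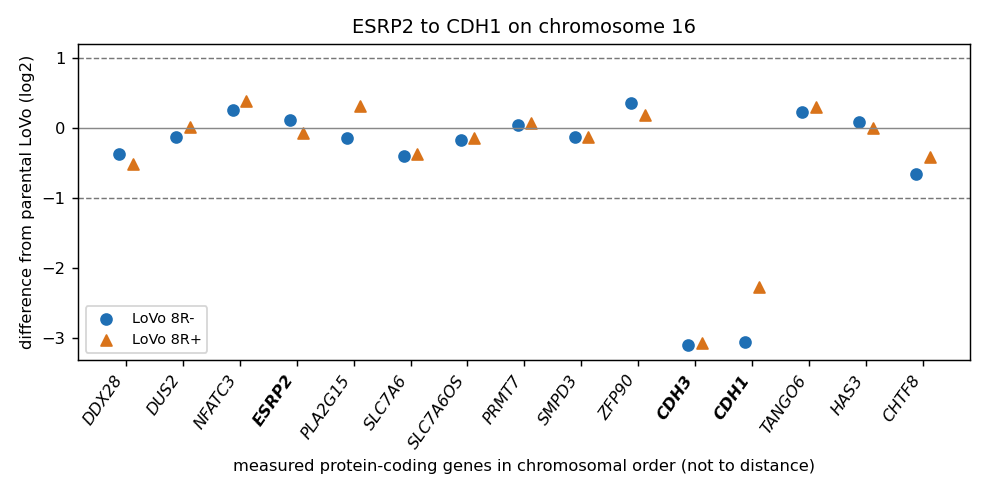
Differences in log2 level between a resistant culture (circles for LoVo 8R-, triangles for LoVo 8R+) and parental LoVo for 15 measured protein-coding genes in their order on chromosome 16, from 3 genes before ESRP2 to 3 after CDH1, with dashed lines at 2-fold. CDH3 and CDH1 lie beyond 2-fold at -3.10 and -3.06 in LoVo 8R-, and ESRP2 lies at 0.11.

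RAB25, an epithelial small GTPase of the RAB11 group that returns cargo from recycling endosomes to the cell surface, had the largest difference of the 10. Parental LoVo had a level of 10.68, against 5.95 for LoVo 8R- and 6.11 for LoVo 8R+. These are 26.5-fold and 23.7-fold lower levels (log2 differences -4.73 and -4.57), and RAB25 ranked 5 and 7 from the lowest of all genes. Both resistant levels lie close to the first quartile of their arrays (6.10 and 6.03), so the folds may be understated.

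The promoter of RAB25 is printed here because this gene had the largest difference and the window holds the E-box bound by ZEB and SNAI proteins. The RefSeq window runs from 250 bases before the start of the transcript to 50 after it, at chr1:156060910-156061209 of GRCh38.p14, plus strand. Capitals mark CACCTG or, on the other strand, CAGGTG.
RAB25: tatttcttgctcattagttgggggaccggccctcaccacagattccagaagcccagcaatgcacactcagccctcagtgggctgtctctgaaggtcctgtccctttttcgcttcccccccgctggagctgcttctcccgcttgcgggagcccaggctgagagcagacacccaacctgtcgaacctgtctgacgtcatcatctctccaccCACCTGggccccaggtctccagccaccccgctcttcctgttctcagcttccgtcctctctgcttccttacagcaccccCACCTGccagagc
The motif is present 2 times, at bases 210 and 288 counted from the first base shown, and the transcript starts at base 251. In the whole table, 20.6% of 35116 promoters of this length hold it. The match is a description of the letters and says nothing of binding in these cells.

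Of the 9 genes for the RAB11 recycling machinery, MYO5A alone was past 2-fold, downward on both LoVo-R8 arrays. Of all genes, 2.78% passed 2-fold downward in LoVo 8R- and 2.30% in LoVo 8R+. MYO5A, a myosin motor that carries recycling vesicles, had levels of 8.94, 7.72 and 7.73, or differences of -1.22 and -1.21. MYO5B, the related motor of epithelial cells, had -0.09 and -0.14. RAB11A, the closest partner in function, had -0.29 and 0.01, and the adaptor gene RAB11FIP2 0.33 and -0.19. RAB11FIP1 had the same level of 8.38 on all arrays. The list's median difference was -0.05 without irinotecan and -0.10 with it, against 0.00 for all genes on both.

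The transcription factor gene GRHL2 had levels of 8.65, 5.77 and 6.02. It was 7.37-fold lower in LoVo 8R- and 6.20-fold lower in LoVo 8R+ (log2 differences -2.88 and -2.63). Both resistant levels were below the first quartile of their arrays, so these folds too may be understated. OVOL1 had 8.40, 7.20 and 6.78, with differences of -1.20 and -1.62. OVOL1 was the only one of the 4 lower members with its lowest level in LoVo 8R+.

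Their paralogs differed from parental LoVo to unequal extents. GRHL3 had levels of 7.94, 6.52 and 6.38, or differences of -1.42 and -1.56. GRHL1 had -0.94 and -0.74, and loess correction took it past 2-fold without irinotecan (-1.01). OVOL2, by contrast, had -0.16 and -0.24. For ESRP2 the levels were 8.88, 9.0 and 8.81 in the same order, or differences of 0.11 and -0.07. Its paralog ESRP1 was not analysed here. The values are 1 per gene, so splice forms that ESRP proteins control were not measured.

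The other factors of epithelial and intestinal identity were mostly near their parental levels. Of 14 measured genes on that list, GRHL3 was at least 2-fold lower on both arrays and 0 were higher. CDX2, an intestinal homeobox gene, had 0.35 and 0.91, the largest positive difference of the list in LoVo 8R+. GATA6 had 0.29 and 0.34, ELF3 0.31 and 0.21, KLF5 0.13 and -0.27, and EHF -0.06 and -0.28. The median was 0.10 without irinotecan and -0.08 with it.

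ZEB1, the zinc finger repressor of CDH1, had its lowest log2 level in parental LoVo, 7.06, while LoVo 8R- and LoVo 8R+ each read 9.05. The folds over parental LoVo were 3.96 without irinotecan and 3.95 with it, from differences of 1.99 and 1.98. It ranked 49 and 76 from the highest of all genes. Both resistant arrays lay above parental LoVo and within 0.01 of each other.

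ZEB2, its paralog, had no such difference. The brighter of its 2 probe sets read 5.23 on all arrays, and the dimmer one 3.10, 3.05 and 3.14 in the order above. Identical values are common in this table, where 26.1% of probe sets share a value on at least 2 arrays. SNAI2, which encodes the repressor Slug, had 5.79, 5.98 and 6.11, or differences of 0.19 and 0.31. ZEB2 lay below the first quartile of genes on every array, and SNAI2 in parental LoVo and LoVo 8R-, so small amounts of either RNA would be hard to see.

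TCF4, here the gene of the basic helix-loop-helix E-protein E2-2 and not the Wnt effector of the same nickname, had levels of 6.75, 7.91 and 8.19. It was higher by 2.23-fold without irinotecan and by 2.71-fold with it (differences 1.16 and 1.44). VIM, which encodes the mesenchymal intermediate filament vimentin, had 10.01, 11.83 and 11.87. It was 3.52-fold and 3.64-fold higher (differences 1.82 and 1.86). VIM was already bright in parental LoVo, above 89.7% of genes on that array.

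**Figure D3:**
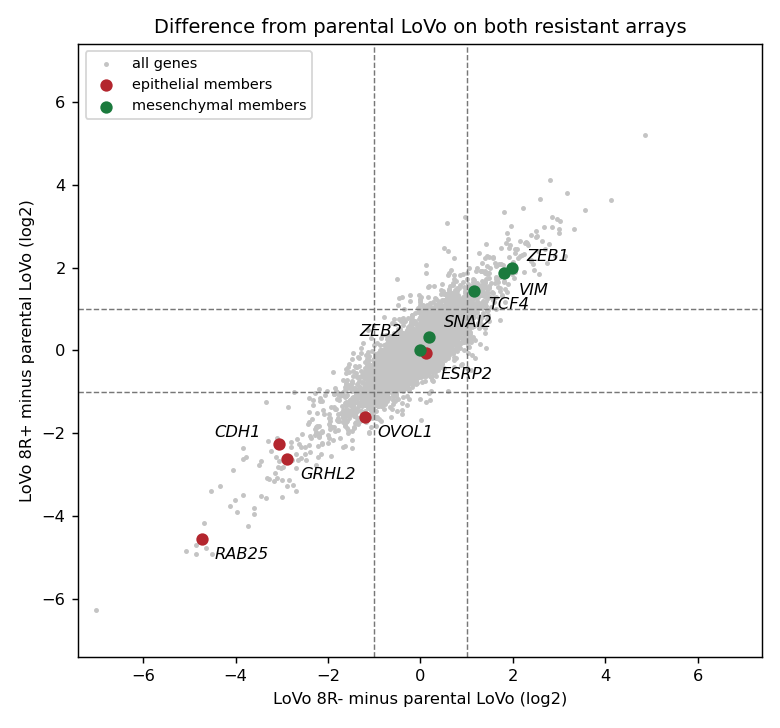
LoVo 8R- minus parental LoVo (horizontal axis) and LoVo 8R+ minus parental LoVo (vertical axis), in log2 units, for 18417 genes (grey), with epithelial members in red, mesenchymal members in green and dashed lines at 2-fold. Both axes use the same parental array, so points tend to the diagonal. RAB25 lies at -4.73 and -4.57 and ZEB1 at 1.99 and 1.98.

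The other transcription factors known from epithelial to mesenchymal transition were mostly within 2-fold. Of 11 measured, PRRX1 alone exceeded 2-fold, upward in either resistant culture. The share of all genes past 2-fold upward was 1.64% in LoVo 8R- and 2.25% in LoVo 8R+. PRRX1, a homeobox gene of mesenchyme, had levels of 5.50, 6.95 and 6.89 (differences 1.46 and 1.39), from a parental level below the first quartile. KLF8 had 0.60 and 0.58, also from a dim parental level of 4.19. SNAI1 had 0.12 and -0.05, TWIST1 0.29 and -0.01, and TWIST2 0.19 and 0.11. TCF12, an E-protein gene like TCF4, had 0.40 and 0.31, and FOXQ1 0.47 and 0.02. The medians of the list were 0.22 and 0.02.

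Mesenchymal structural and matrix genes were mostly near their parental levels. Of 15 measured, ACTA2 and TNC exceeded parental LoVo by over 2-fold in either resistant culture, and 0 lay 2-fold below. The whole array had 1.64% and 2.25% of genes 2-fold higher in LoVo 8R- and LoVo 8R+, and 2.78% and 2.30% lower. This list too was chosen with earlier results known, so nothing is read from its count. ACTA2, the smooth muscle actin gene, had levels of 8.46, 9.85 and 9.77 (differences 1.38 and 1.31), and TNC, the gene of the matrix protein tenascin C, had 7.15, 8.55 and 9.02 (1.40 and 1.87). NT5E, which encodes the surface nucleotidase CD73, had 0.69 and 0.85. The fibronectin gene FN1 had -0.36 and -0.51, SPARC and TAGLN had 0.00 on both arrays, and the N-cadherin gene CDH2 read 5.36, 5.49 and 5.36. The median of the list was 0.01 without irinotecan and 0.00 with it. On each array, 6 of the 15 lay below the first quartile of genes, as did CDH2. Small amounts of these RNAs would be hard to see.

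In contrast, genes known to be repressed by ZEB1 or bound by GRHL2 lay mostly below parental LoVo. Of 21 measured, 7 were at least 2-fold lower without irinotecan and 7 with it, 6 of them on both arrays, and 0 were higher. The median of the list was -0.60 without irinotecan and -0.56 with it. Among all 18417 genes, 2.78% were 2-fold lower without irinotecan and 2.30% with it, with 321 genes lower on both arrays. This list was chosen with earlier results of these arrays known, so nothing is read from its larger share. MAL2, a gene of apical transport, had levels of 12.65, 9.59 and 9.98 (differences -3.06 and -2.67). AP1M2, the epithelial subunit of a sorting adaptor, had 9.37, 6.52 and 6.24 (-2.85 and -3.13). LAD1, which encodes the basement membrane anchor ladinin, had 9.78, 7.09 and 6.39 (-2.69 and -3.39). The membrane protease gene ST14 had 10.38, 8.13 and 8.56 (-2.25 and -1.82).

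Further lower genes of this list were CLDN7, a claudin gene (-1.62 and -1.82), and TMEM30B (-1.19 and -1.16). CLDN4, another claudin gene, had levels of 9.76, 7.74 and 8.78 (-2.02 and -0.98). MARVELD2, which encodes tricellulin, had -0.76 and -1.23. Others stayed close to parental LoVo, such as EPCAM (-0.43 and -0.30), ERBB3 (-0.21 and -0.11), CRB3 (0.16 and -0.10) and MUC1 (0.01 and -0.22). SPINT1, a protease inhibitor gene, had -0.90 and -0.56, and its relative SPINT2 -0.34 and 0.08.

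Promoters of 4 genes of this list are printed to set sequence beside these differences, with the E-box in capitals as before. AP1M2 (chr19:10587263-10587562, minus strand) and LAD1 (chr1:201399275-201399574, minus strand) were among the lowest. CLDN4 (chr7:73830746-73831045, plus strand) was lower without the motif, and CRB3 (chr19:6464021-6464320, plus strand) was near its parental level with it. All windows are from RefSeq on GRCh38.p14 and read 5′ to 3′ on the strand of the gene.
AP1M2: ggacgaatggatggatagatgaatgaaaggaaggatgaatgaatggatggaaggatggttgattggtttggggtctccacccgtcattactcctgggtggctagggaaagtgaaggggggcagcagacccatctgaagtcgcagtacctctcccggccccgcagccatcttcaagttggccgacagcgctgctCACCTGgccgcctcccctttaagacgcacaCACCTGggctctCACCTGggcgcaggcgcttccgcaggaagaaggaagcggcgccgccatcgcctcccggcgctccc
LAD1: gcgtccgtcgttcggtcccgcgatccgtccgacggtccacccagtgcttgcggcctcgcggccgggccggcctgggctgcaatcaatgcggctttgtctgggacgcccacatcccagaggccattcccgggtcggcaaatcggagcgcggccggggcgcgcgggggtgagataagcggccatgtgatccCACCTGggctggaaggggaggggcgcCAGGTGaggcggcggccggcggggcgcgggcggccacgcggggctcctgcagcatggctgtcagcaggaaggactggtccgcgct
CLDN4: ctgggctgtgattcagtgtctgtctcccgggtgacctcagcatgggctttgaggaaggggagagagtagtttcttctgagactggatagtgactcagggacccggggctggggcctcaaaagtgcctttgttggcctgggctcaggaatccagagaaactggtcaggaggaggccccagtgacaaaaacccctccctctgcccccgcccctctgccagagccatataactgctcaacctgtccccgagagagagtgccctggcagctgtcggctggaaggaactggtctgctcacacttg
CRB3: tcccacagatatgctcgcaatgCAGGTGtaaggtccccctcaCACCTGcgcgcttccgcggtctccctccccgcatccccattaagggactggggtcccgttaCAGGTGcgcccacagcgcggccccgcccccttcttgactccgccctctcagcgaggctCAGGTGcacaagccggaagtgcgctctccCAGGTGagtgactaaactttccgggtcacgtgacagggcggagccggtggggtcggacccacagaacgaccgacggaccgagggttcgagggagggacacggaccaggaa
The motif count was 3 for AP1M2, 2 for LAD1, 0 for CLDN4 and 5 for CRB3. Of the 12 genes of the list that matched the promoter table by symbol, 10 hold it in at least 1 window, against 24.1% of the 27305 genes in the table. Genes can have several windows. The list was made of genes known to be repressed by ZEB1, which binds this motif, or bound by GRHL2. Nothing is therefore read from its larger share. Among these 12, the 5 that were lower in LoVo 8R- included 4 with the motif, and the other 7 included 6. With only 2 of the 12 lacking the motif, nothing can be read from this split. A grainyhead motif, AACNGGTT or AACCNGTT on the other strand, was found in 0 of the 12 genes, against 2.14% of the genes in the table (1.73% of all promoters).

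Of the 10 members, 5 matched the promoter table, namely RAB25, TCF4, VIM, ZEB1 and ZEB2. Besides RAB25, ZEB1 holds the E-box in 2 of its 7 windows, TCF4 in 0 of 10, VIM in 0 of 1 and ZEB2 in 0 of 1. CDH1, GRHL2, ESRP2, OVOL1 and SNAI2 had no entry.

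Precursors of the miR-200 family, which target ZEB1 and ZEB2 RNA, are on the array as well. Their mature sequences on the 3p arm are given with the seed, bases 2 to 8, in capitals (RefSeq, GRCh38.p14), because the seed sets the target and splits the family in a pair of groups.
hsa-miR-200b-3p: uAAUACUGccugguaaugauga
hsa-miR-200c-3p: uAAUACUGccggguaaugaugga
hsa-miR-429: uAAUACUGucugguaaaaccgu
hsa-miR-200a-3p: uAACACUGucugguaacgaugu
hsa-miR-141-3p: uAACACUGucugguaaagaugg
The first 3 share the seed AAUACUG, and the last 2 share AACACUG. Of the 5 precursors measured, 0 were past 2-fold on either LoVo-R8 array. MIR141 had levels of 6.59, 5.98 and 6.23 (differences -0.61 and -0.36), the largest of the group. MIR200C, which lies beside it on chromosome 12, had 7.32, 7.10 and 7.39 (-0.21 and 0.07). MIR200B had 6.84, 6.94 and 6.64, MIR429 6.13, 6.27 and 6.0, and MIR200A 4.65, 4.57 and 4.57. Precursors below the first quartile of genes numbered 1 in parental LoVo and 2 on each LoVo-R8 array, so a fall in these would be hard to see. Probe sets of precursors do not measure the mature microRNA.

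The genes of proteins that work with E-cadherin had smaller differences in RNA level than CDH1 itself. Of 7 measured genes of the complex, JUP, the plakoglobin gene, was at least 2-fold lower in LoVo 8R- (-1.07, and -0.86 in LoVo 8R+). It no longer reached 2-fold in LoVo 8R- with loess correction (-0.99) or repeated quantile normalization (-0.99). The alpha-catenin gene CTNNA1 had levels of 11.58, 10.88 and 10.61 (-0.70 and -0.97), and the beta-catenin gene CTNNB1 11.61, 11.42 and 11.56 (-0.19 and -0.05). AFDN, which links junctions to actin, had -0.51 and -0.30. PTPN14, a junctional phosphatase gene, had 0.99 and 0.86, and it passed 2-fold in LoVo 8R- under the same corrections (1.07 with either). Of 6 other cadherins measured, CDH3 was lower and CDH17, the liver-intestine cadherin, was higher on both arrays, at 11.89, 12.95 and 13.01 (1.07 and 1.13).

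Keratins of simple epithelium stayed within 2-fold of parental LoVo. Of 6 measured, 0 were past 2-fold, with a range of -0.54 to 0.09 in LoVo 8R- and -0.53 to -0.18 in LoVo 8R+. KRT8 had levels of 13.27, 12.73 and 12.77, KRT18 13.01, 12.60 and 12.48, and KRT19 11.99, 11.74 and 11.81. A dimmer probe set of KRT18 had -0.75 and -0.86, and one that names several genes had -0.79 and -0.89. These lie outside the range given, though within 2-fold. KRT18 shares sequence with many pseudogenes, so its values are uncertain. The corepressors that act with ZEB1 were likewise within 2-fold in 9 of 9 cases. The deacetylase gene HDAC1 had -0.72 and 0.06, CTBP1 -0.32 and -0.18, and EZH2 -0.35 and -0.25. SIRT1 had 0.25 and -0.62, and was 0.87 lower in LoVo 8R+ than in LoVo 8R-.

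**Figure D4:**
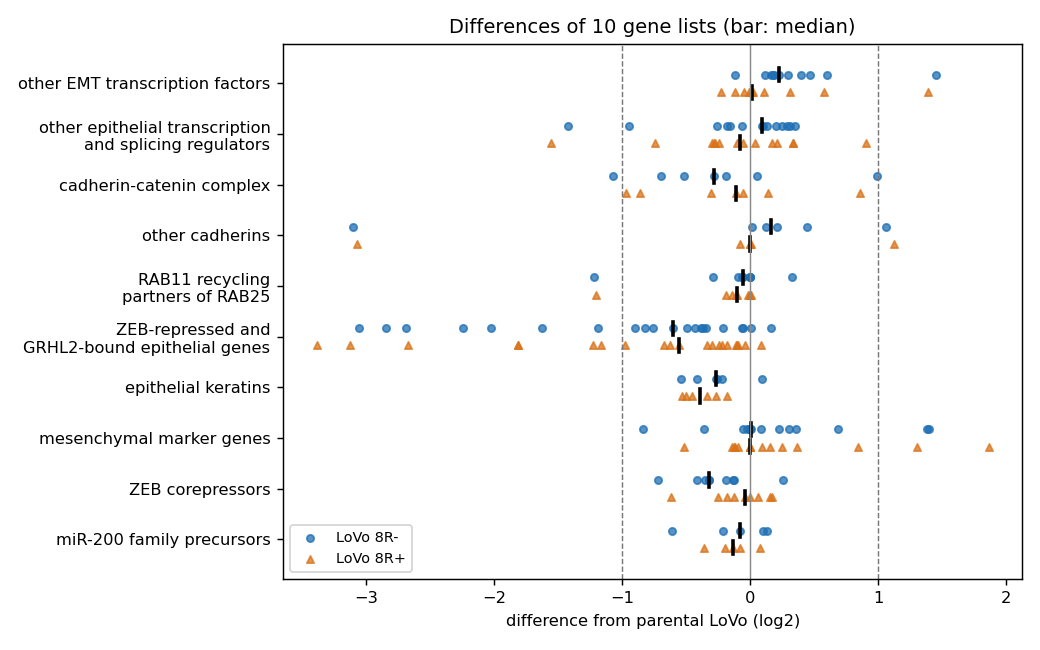
Differences in log2 level from parental LoVo for every measured gene of 10 lists, drawn as circles for LoVo 8R-, triangles for LoVo 8R+, with medians as black bars and 2-fold marked by dashed lines. The genes repressed by ZEB1 or bound by GRHL2 have medians of -0.60 and -0.56, and the mesenchymal marker genes 0.01 and 0.00.

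With irinotecan in the medium, CDH1 was higher than without it, and the other 9 genes differed by less than 0.53, the yardstick given above. Between LoVo 8R+ and LoVo 8R-, 0 of 10 members were past 2-fold, and 0.641% of all genes were. CDH1 had the largest difference, 0.80 higher in LoVo 8R+ (1.74-fold), and ranked 211 from the highest of all genes. OVOL1 was 0.42 lower in LoVo 8R+, TCF4 0.28 higher, GRHL2 0.25 higher, and ESRP2 0.18 lower. RAB25 (0.16), SNAI2 (0.12), VIM (0.05), ZEB1 (0.00) and ZEB2 (0.00) were closer still. Among the target genes, CLDN4 was 2.06-fold higher in LoVo 8R+ than in LoVo 8R-. CLDN4 and CDH1 thus lay nearer to parental LoVo on the array with the drug, whereas LAD1, 0.70 lower in LoVo 8R+ than in LoVo 8R-, and MARVELD2, 0.46 lower, lay further from it.

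The measured neighbours of all 10 members were mostly within 2-fold. The 3 nearest on each side gave 60 genes that are no member. Among these, LoVo 8R- had 3 lower and 3 higher, whereas LoVo 8R+ had 1 lower and 2 higher. CDH3 was among the lower genes of either culture. Across the whole array, the downward share past 2-fold was 2.78% without the drug and 2.30% with it. Upward, the shares were 1.64% and 2.25% in that order. Whether the neighbours depart from these shares was not tested, and the counts are small. Next to TCF4 on chromosome 18, CCDC68 had 1.09 and 0.91, and RAB27B, a secretory GTPase gene, had 1.34 and 1.67. RRM2B near GRHL2 had 1.26 and 0.65, and ACVR2A next to ZEB2 had 0.78 and 1.06. MCM4, a replication helicase gene near SNAI2, had -1.38 and -0.39, and ST8SIA6 next to VIM had -1.20 and -0.79.

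The genes nearest in pattern were found by the distance between pairs of log2 differences from parental LoVo, over 3 arrays and among genes in the brighter part of the array. Nearest to CDH1 were MUC12, an intestinal mucin gene (distance 0.09), SQLE, a cholesterol synthesis enzyme gene (0.14), the metallothionein gene MT1M (0.25) and NRN1 (0.25). Nearest to ZEB1 were PGAP1 (0.08), PRR5L (0.13), LYPLAL1 (0.16) and ZFP36L1, an RNA decay factor gene (0.20). Many genes can share a pattern over so few arrays.

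The labelled cell type was checked by its markers. Of 10 colon epithelial markers, 7 were within 2-fold on both arrays, CDH17 was higher, and CEACAM5 (-2.37 and -2.11) and LGALS4 (-2.27 and -2.01) were lower. Fibroblast markers were within 2-fold in 8 of 8 cases, with DCN at 4.03, 4.05 and 4.10 and LUM at 3.77, 3.73 and 3.89, and their summed linear level was 640, 676 and 632 in parental LoVo, LoVo 8R- and LoVo 8R+. Endothelial markers were within 2-fold in 6 of 6 cases, with sums of 240, 266 and 242. Of 5 immune markers, CD68, which lysosomes of other cells also carry, was higher (1.47 and 1.86), while PTPRC read 4.12 on all arrays and the other 3 lay between 0.00 and 0.21 in LoVo 8R- and between -0.08 and 0.05 in LoVo 8R+. The sums of the immune list were 1016, 2452 and 3120, with CD68 its brightest marker on every array (log2 levels 9.64, 11.12 and 11.51). Whether other cells have a part in the differences of VIM, ZEB1 and TCF4 was not tested beyond these values.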

How the data were processed

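The authors hybridised total RNA from the 3 cultures to Affymetrix Human Gene 1.0 ST arrays and deposited log2 levels of 33297 probe sets, made by RMA with background correction, quantile normalization and median polish. The submitters' notes name Affymetrix Expression Console 1.1, and the methods name R and Bioconductor. No detection call was used here.

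Gene names came from the platform annotation of the probe sets: 19460 name 1 gene, 1754 several and 12083 none. A gene took its brightest single-gene probe set. Differences are subtractions of log2 levels, counted at 2-fold, with no test because each condition has 1 array. The calculation was tested on simulated data. Chromosomal order and promoter windows came from RefSeq on GRCh38.p14. Coordinates are given for the printed promoter windows only and not for probe sets, since the array annotation names no build.

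The members and the 14 gene lists beside them were chosen with earlier results of these data known. Named genes are the members, up to 4 per list with the largest mean difference, list genes past 2-fold where 5 or fewer were, the neighbours of members, and the 4 genes nearest to CDH1 and to ZEB1 in pattern. List genes named beyond these were added after their values were seen. Alternatives were thresholds of 1.5-fold and 3-fold, filters on dim genes, median centring, loess (span 0.3, 3 iterations), repeated quantile normalization, the mean over probe sets and an average of both LoVo-R8 arrays. Python 3.11.15, numpy 2.4.6, pandas 2.3.3, statsmodels 0.14.6 and matplotlib 3.10.9 were used.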

Additional observations from a re-analysis of the deposited data

Results flagged for a closer look

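ITGA5, an integrin gene among the mesenchymal markers, lay on opposite sides of parental LoVo in the LoVo-R8 cultures. Against 7.38 for the parental array on the log2 scale, LoVo 8R- read 6.54 and LoVo 8R+ read 7.75, so the array with irinotecan exceeded the one without by 1.21. With 1 array per condition, this difference was not tested.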

How the results depend on the processing

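The log2 differences of the 10 members stayed on the same side of 2-fold in 140 of 140 values recomputed with another normalization, the mean over probe sets or both LoVo-R8 arrays averaged. The largest move under another normalization or probe set rule was 0.10. Counts of lower epithelial and higher mesenchymal members stayed within 1.5 times of those given under every threshold and normalization tried. At 3-fold, lower epithelial members numbered 3 instead of 4 in LoVo 8R- and stayed at 4 in LoVo 8R+. Higher mesenchymal members numbered 2 instead of 3 on both arrays at 3-fold. The filters on dim genes changed neither count. They kept a gene by the higher of the 2 arrays compared, so they could hardly remove such members and nothing is read from them. Between the LoVo-R8 arrays, 0 members were past 2-fold and 1, CDH1, was past 1.5-fold. Among counts of the other lists, 140 of 160 stayed within 1.5 times. Many of these are counts of 0 that stayed 0, so the total says little of the lists with genes past 2-fold. At 1.5-fold, the genes repressed by ZEB1 or bound by GRHL2 that were lower in LoVo 8R- numbered 11 instead of 7. The other transition factors that were higher in LoVo 8R- numbered 2 instead of 1, and 0 on either LoVo-R8 array with genes below the median left out. Epithelial regulators that were lower numbered 2 instead of 1 in both cultures at 1.5-fold, and 2 in LoVo 8R- with loess correction. On the list of genes whose proteins work with E-cadherin, 2 were lower at 1.5-fold in both cultures. At 2-fold, 1 of them was lower in LoVo 8R- and 0 in LoVo 8R+. In each culture, 1 was higher at 1.5-fold, against 0 at 2-fold. With loess correction or repeated quantile normalization, 0 of that list were lower and 1 was higher in LoVo 8R-. At 1.5-fold, counts of 0 became 1 for higher epithelial regulators in LoVo 8R+, and for lower mesenchymal markers and miR-200 precursors in LoVo 8R-. Lower corepressors also went from 0 to 1 in each culture, with HDAC1 in LoVo 8R- and SIRT1 in LoVo 8R+. No paired analysis was possible because each condition has 1 array. Levels of ZEB2 and SNAI2, and of RAB25 and GRHL2 in LoVo-R8, lie near or below the first quartile of genes. This limits what can be seen of them, and with no detection call their distance from background is not known.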

Other observations

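Some genes of these lists have only a probe set that names several genes, so their values were kept out of the comparisons. The probe set for the p120-catenin gene CTNND1 read 10.99 on all arrays. The one for BMI1, a polycomb gene, read 10.27, 10.24 and 9.78 for parental LoVo, LoVo 8R- and LoVo 8R+. The one for MIR205 read 5.76, 5.88 and 5.51.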
